A study of Homo sapiens with 15 samples.

Results

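The genes described here are 10 genes of the YAP and TEAD pathway, taken from a fixed list of symbols: CCN1, CCN2, ANKRD1, AMOTL2, AJUBA, AXL, MYOF, LATS2, TEAD1 and TEAD4. They are 10 of the 60671 genes in the count table, and the list names them by symbol, with no threshold on a measured value. The RNA came from HT115, an established line of human colorectal cancer cells, which carried a doxycycline-inducible construct. There were 5 groups of 3 libraries, and every group, the control included, received 0.5 µg/ml doxycycline for 24 h. M228, M303 and M379 each expressed a mutant SOX9 with a V5 tag. The series text calls M303 a truncated form, and the sources used here do not give what M228 and M379 change. SOX9_WT expressed wild-type SOX9 with the same tag, and GFP expressed green fluorescent protein as the control. There was no group without doxycycline among the samples used here, and no label says whether a group is 1 clone or a pool. The series text speaks of 6 experiments with 2 replicates each, whereas the labels give 5 groups with 3 libraries each, which are the groups used here. Whether libraries of 1 group stem from different cultures is not labelled. The p-values therefore weigh differences against library-to-library spread that could be purely technical.

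YAP (gene YAP1) and its relative TAZ (gene WWTR1) are co-activators that bind DNA through the TEAD factors. The Hippo kinases STK3 and STK4 activate LATS1 and LATS2, which phosphorylate YAP and TAZ and keep them out of the nucleus. When YAP and TAZ enter the nucleus, they raise a set of target genes that includes inhibitors of the pathway itself, and in the gut this output is known for its part in regeneration and in tumours. In the list, TEAD1 and TEAD4 are the DNA-binding partners. CCN1 and CCN2, earlier called CYR61 and CTGF, are secreted matrix-associated proteins. ANKRD1 is an ankyrin repeat protein and, with CCN1 and CCN2, among the most used readouts of YAP activity. AXL is a receptor tyrosine kinase, MYOF (myoferlin) a membrane protein of the ferlin family, and LATS2, AMOTL2 and AJUBA act on YAP within the pathway. TEAD1 and TEAD4 are thus better called factors of the pathway than its targets.

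The TEAD factors bind the motif GGAATG, which reads CATTCC on the opposite strand. Windows of 300 bases around gene starts, from 250 before to 50 after, were taken from RefSeq on GRCh38.p14 and searched on both strands. Of the 10 genes, 7 had an entry, with 10 windows in all. The motif was present in at least 1 window of 6 of these 7 genes and in 6 of their 10 windows, and 14.03% of 35116 RefSeq windows of the same length held it. The AP-1 motif TGANTCA, where N is any base, was found in the ANKRD1 window alone among these genes and in 7.71% of all windows, and it did not overlap a GGAATG match there. CCN2 and ANKRD1 are shown because they hold the most copies, 3 and 2. At least 3 copies occurred in 0.128% of all windows and at least 2 in 1.37%. LATS2, AMOTL2 and AJUBA are shown because the values below turn on them, each with 1 copy, for AMOTL2 and AJUBA in the second of their 2 windows. The MYOF window held none. The sequences read 5′ to 3′ on the minus strand of the genome, the strand of these genes, with GGAATG or CATTCC in capitals. A match is a description of the letters and not evidence of binding.
CCN2, chr6:131951323-131951622: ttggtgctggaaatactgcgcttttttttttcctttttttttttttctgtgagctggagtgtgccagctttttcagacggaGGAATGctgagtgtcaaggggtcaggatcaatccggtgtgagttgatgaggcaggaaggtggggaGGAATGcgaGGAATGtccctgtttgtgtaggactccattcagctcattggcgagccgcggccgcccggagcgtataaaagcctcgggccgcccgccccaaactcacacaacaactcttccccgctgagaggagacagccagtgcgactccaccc
ANKRD1, chr10:90921038-90921337: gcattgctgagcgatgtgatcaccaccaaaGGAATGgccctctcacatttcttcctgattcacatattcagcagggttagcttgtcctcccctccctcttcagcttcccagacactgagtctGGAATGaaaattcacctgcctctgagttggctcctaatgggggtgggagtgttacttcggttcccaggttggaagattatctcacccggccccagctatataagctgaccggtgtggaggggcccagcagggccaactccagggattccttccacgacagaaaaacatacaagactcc
LATS2, chr13:21061537-21061836: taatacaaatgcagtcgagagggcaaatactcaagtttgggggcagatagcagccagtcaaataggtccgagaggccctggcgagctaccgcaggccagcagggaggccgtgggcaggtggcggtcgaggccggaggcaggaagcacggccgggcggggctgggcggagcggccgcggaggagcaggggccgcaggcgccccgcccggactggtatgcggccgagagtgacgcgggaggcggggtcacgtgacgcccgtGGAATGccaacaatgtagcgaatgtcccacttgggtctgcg
AMOTL2, chr3:134374398-134374697: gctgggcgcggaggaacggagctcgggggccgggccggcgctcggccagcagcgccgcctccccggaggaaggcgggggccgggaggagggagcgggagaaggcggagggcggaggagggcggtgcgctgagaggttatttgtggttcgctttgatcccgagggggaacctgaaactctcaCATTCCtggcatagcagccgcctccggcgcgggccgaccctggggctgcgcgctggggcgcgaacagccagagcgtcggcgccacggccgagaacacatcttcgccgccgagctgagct
AJUBA, chr14:22976793-22977092: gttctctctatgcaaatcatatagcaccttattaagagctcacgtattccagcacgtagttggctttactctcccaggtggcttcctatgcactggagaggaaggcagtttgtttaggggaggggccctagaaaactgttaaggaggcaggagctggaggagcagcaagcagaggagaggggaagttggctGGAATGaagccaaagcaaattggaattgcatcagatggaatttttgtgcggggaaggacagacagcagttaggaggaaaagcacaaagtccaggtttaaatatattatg

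The shallowest library, GFP replicate 1, held 3054755 counted reads and the deepest, M303 replicate 1, held 31704249. SOX9 itself, the induced gene, had 1900, 2032 and 2383 CPM in M228, 2949, 3037 and 3039 CPM in M303, 2034, 2329 and 2282 CPM in M379, 242.9, 210.2 and 185.8 CPM in SOX9_WT, and 97.6, 100.8 and 157.9 CPM in GFP (CPM, counts relative to the TMM-scaled total of a library). Each of the 3 mutant groups thus lay far above SOX9_WT and GFP, and the log2 difference of SOX9_WT from GFP was 0.84 ± 0.18 (SE), which did not pass (edgeR adjusted p = 0.110). Comparisons of a mutant with SOX9_WT therefore differ in SOX9 level as well as in mutation, which cannot be told apart here. All 10 colorectal epithelium markers stood above 1 CPM in every group. Summed fibroblast markers reached 3.65 to 6.34 CPM and endothelial markers 0.0852 to 1.07 CPM over the 15 libraries, and of 5 leukocyte markers only LYZ, also a gene of intestinal Paneth cells, was above 1 CPM. GFP replicate 2 stood apart from the other libraries, where ribosomal protein genes took up 6.62% of the reads, against 3.42% to 4.52% elsewhere. Differences from GFP that change with it are given with and without it below.

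Per kilobase of exon, which allows genes to be compared, the 10 genes spanned a wide range of levels in these cells. MYOF had the highest median over the 15 libraries, 39.7 CPM per kb, followed by TEAD4 with 27.3, AJUBA with 16.5, TEAD1 with 16.4 and AMOTL2 with 12.5 CPM per kb. Over the 15 libraries, the range of MYOF overlapped that of TEAD4, while every TEAD4 library lay above every AJUBA library. The ranges of AJUBA, TEAD1 and AMOTL2 overlapped one another. LATS2 (3.47 CPM per kb), CCN1 (2.45) and CCN2 (0.523) were lower, and AXL (0.0568) and ANKRD1 (0, the median library having no read) were close to the limit of detection. LATS2 lay below AMOTL2 in every library and overlapped CCN1, CCN1 and CCN2 overlapped narrowly, and AXL lay below CCN2 without overlap. The secreted targets, AXL and ANKRD1 thus had the 4 lowest medians. For scale, YAP1 itself had a median of 18.2 CPM per kb and WWTR1 2.08 CPM per kb.

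**Figure D1:**
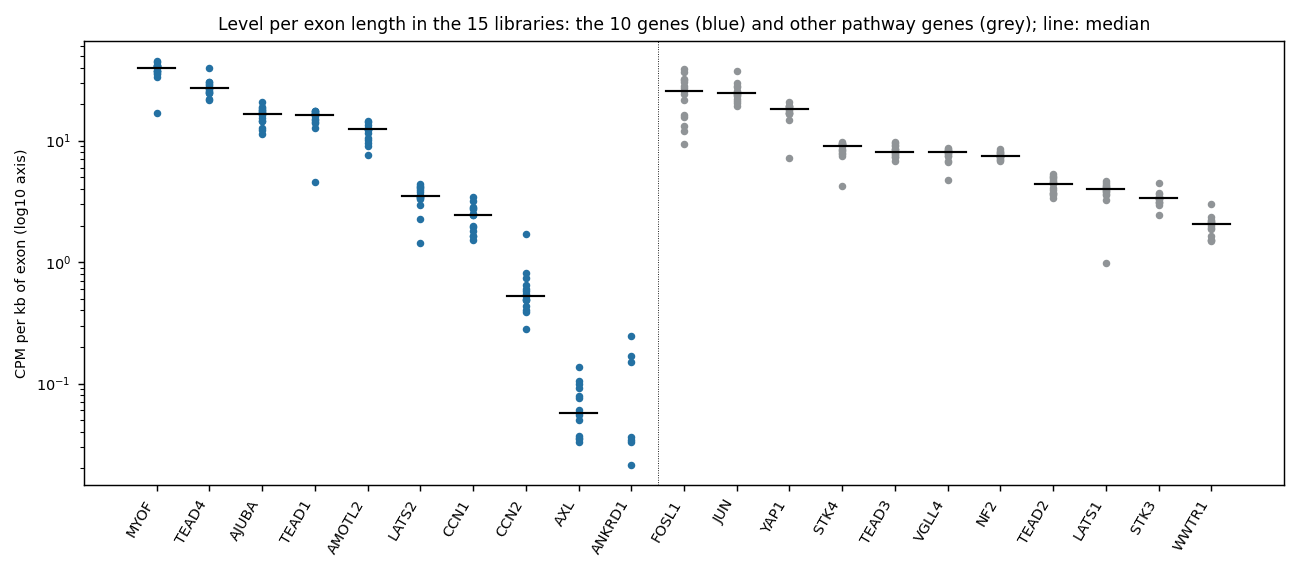
Level per kilobase of exon (TMM-scaled CPM per kb, log10 axis) of the 10 genes in blue and of 11 other pathway genes in grey. Each point is 1 of the 15 libraries and the black line is the median; libraries with no read are not drawn on the log axis, so that ANKRD1, with a median of 0, has no line. MYOF, TEAD4, AJUBA, TEAD1 and AMOTL2 lie above 10 CPM per kb in the median, and CCN2, AXL and ANKRD1 below 1.

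Of the 10 genes, 8 passed the expression filter and were tested, and ANKRD1 and AXL did not. None of the 8 was called in any of the 10 pairwise comparisons among the 5 groups, where a call is an edgeR adjusted p under 0.05 over all 16160 tested genes. The background was low as well. Of all tested genes, 0.241% were called in M228 against GFP, 0.118% in M303 against GFP, 0.0371% in M379 against GFP and 0.0309% in SOX9_WT against GFP. Against SOX9_WT the share was 0.569% for M228, 0.384% for M303 and 0.124% for M379. Between mutants it was 0.0124% for M303 against M228, 0.0433% for M379 against M228 and 0% for M379 against M303. With shares this low, 0 of 8 is not a result that sets these genes apart from the others.

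The 80 pairs of a gene and a comparison say how large a difference the data leave room for. In 64 of them the whole 95% interval lay within 1 log2 unit of 0, that is, within a 2-fold change either way. These intervals come from the fit with 1 mean per group, which leaves differences between library numbers in the spread. The bounds of all 80 intervals ran from −2.01 to 2.13, and both of these extremes belong to CCN2, which had the fewest reads of the 8. The smallest adjusted p was 0.320. An unadjusted p under 0.05 from edgeR's test occurred in 9 pairs. Against GFP there was 1 such gene in M228, 1 in M303 and 1 in M379, LATS2 each time, where 9.38%, 7.8% and 6.77% of all tested genes had such a p, and there were 3 in SOX9_WT (10.7%). Against SOX9_WT, CCN2 alone had such a p, in M228 (6.65% of all tested genes), M303 (6.31%) and M379 (4.7%). Between mutants there was none in M303 against M228 (2.66%), M379 against M228 (3.47%) or M379 against M303 (0.848%). A test for any difference among the 5 group means called none of the 8 genes, where 0.681% of all tested genes were called and 6.85% had an unadjusted p under 0.05. In this fit, CCN2 was the only one of the 8 with such a p (unadjusted 0.0156, edgeR adjusted p = 0.465). Other fits added genes: AMOTL2 with library number kept in the model, LATS2 with DESeq2, and LATS2 and TEAD1 with no filter. With library number kept in the model, AMOTL2 also joined LATS2 at this unadjusted level against GFP in M228, M303 and M379. None of these additions passed adjustment. DESeq2 called 0 of the 10 genes in each of the 10 comparisons as well. With no filter, CCN2 itself passed in the test for any difference among the 5 groups (edgeR adjusted p = 0.0261). In that fit ANKRD1, which is not among the 8, had an unadjusted edgeR p of 0.00085 and did not pass (adjusted p = 0.0520).

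**Figure D2:**
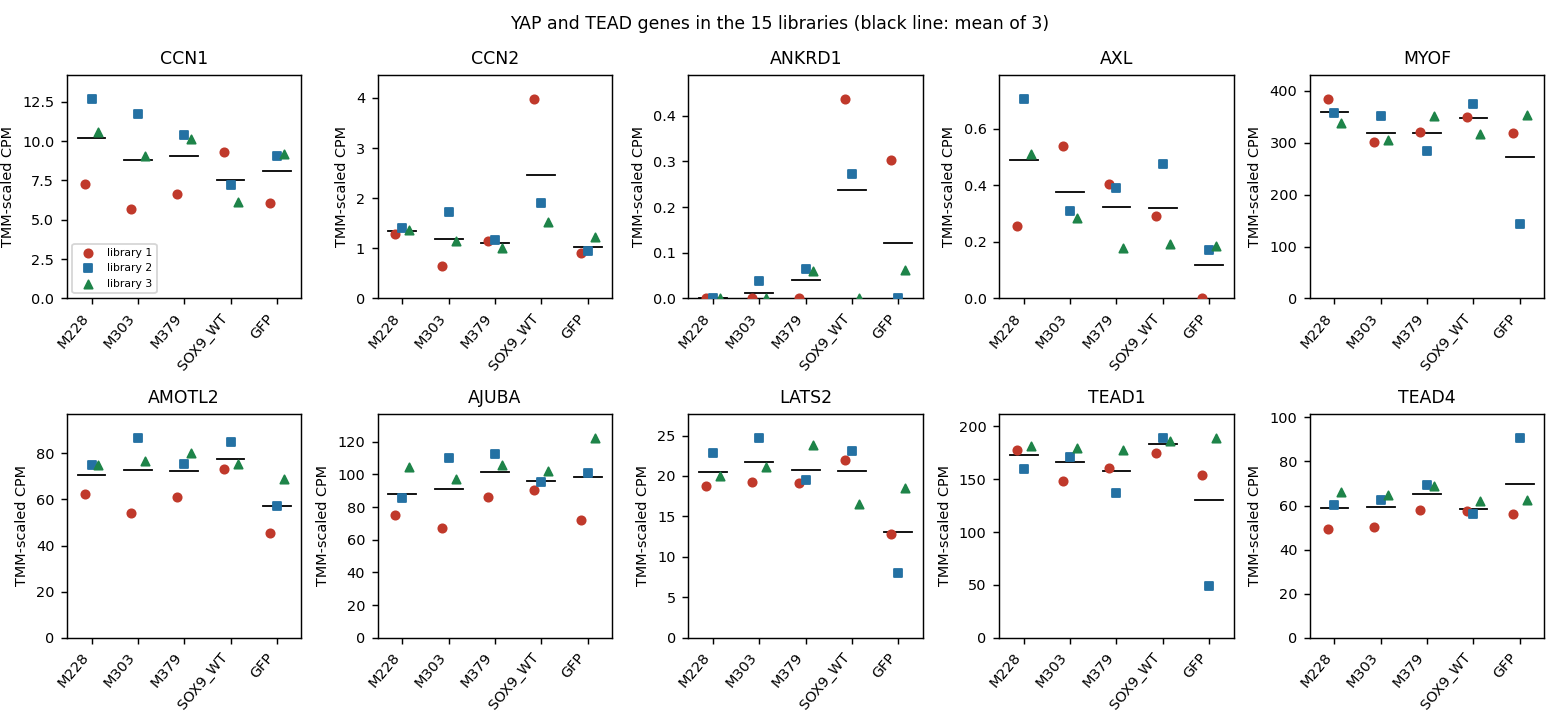
TMM-scaled CPM of the 10 genes in each of the 15 libraries, by group. Colour and shape give the library number within a group and the black line is the mean of 3 libraries; each panel has its own axis, which starts at 0. CCN2 and ANKRD1 are highest in library 1 of SOX9_WT, MYOF, LATS2 and TEAD1 are lowest in library 2 of GFP, and AMOTL2 and AJUBA are lowest in library 1 of every group.

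No difference between groups passed for the DNA-binding partners, and their differences from GFP changed with the GFP library left out. TEAD1 (ENSG00000187079, chr11:12674421-12944737, plus strand, GRCh38) had 177.7, 159.9 and 181.1 CPM in M228, 148.6, 171.1 and 179.2 CPM in M303, 160.7, 136.8 and 177.2 CPM in M379, 175.1, 189.2 and 186.4 CPM in SOX9_WT, and 153.9, 48.8 and 188.6 CPM in GFP. The ranges of the groups overlapped, except that GFP replicate 2 lay far below each of the other 14 libraries. The log2 differences from GFP ran from 0.28 to 0.50 over the 4 groups, with 95% bounds of −0.37 and 1.15. Without GFP replicate 2 they were 0.0056 in M228, −0.056 in M303, −0.13 in M379 and 0.093 in SOX9_WT, so that 2 of the 4 turned negative. Without GFP replicate 3, the highest GFP library, they were 0.80, 0.75, 0.68 and 0.89 in the same order, and none passed (smallest edgeR adjusted p 0.148).

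TEAD4 (ENSG00000197905, chr12:2959330-3040676, plus strand) had 49.5, 60.3 and 66.2 CPM in M228, 50.3, 62.4 and 64.8 CPM in M303, 57.9, 69.2 and 68.8 CPM in M379, 57.4, 56.3 and 62.1 CPM in SOX9_WT, and 56.3, 90.7 and 62.6 CPM in GFP. Here the same GFP library was the highest of the 15, and all groups overlapped. The differences from GFP ran from −0.26 to −0.11 on the log2 scale, with bounds of −0.63 and 0.26. Without GFP replicate 2 they were −0.030 in M228, −0.024 in M303, 0.12 in M379 and −0.029 in SOX9_WT, and without GFP replicate 3 they were −0.34, −0.33, −0.19 and −0.34 in the same order. TEAD1 and TEAD4 thus moved in opposite directions in GFP replicate 2.

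The secreted target CCN1 (ENSG00000142871, chr1:85580761-85584589, plus strand) had 7.30, 12.7 and 10.6 CPM in M228, 5.67, 11.7 and 9.06 CPM in M303, 6.64, 10.4 and 10.1 CPM in M379, 9.29, 7.19 and 6.11 CPM in SOX9_WT, and 6.08, 9.03 and 9.18 CPM in GFP. Groups overlapped throughout, and library 1 was the lowest of its group everywhere except in SOX9_WT, where it was the highest. The log2 differences from GFP ran from −0.14 in SOX9_WT to 0.26 in M228, with bounds of −0.76 and 0.88. Mutants against SOX9_WT gave 0.21 to 0.40, with bounds of −0.38 and 1.01. Without SOX9_WT replicate 1 M228 gave 0.59, M303 gave 0.39 and M379 gave 0.44. With libraries 2 and 3 only the values were 0.78, 0.63 and 0.61 in that order, and none passed (edgeR adjusted p = 0.309, 0.568 and 0.750).

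CCN2 (ENSG00000118523, chr6:131948176-131951372, minus strand) gave the largest differences of the 8 genes and rested on few reads, 54 in M228, 91 in M303, 52 in M379, 126 in SOX9_WT and 34 in GFP, each summed over 3 libraries. It had 1.28, 1.41 and 1.36 CPM in M228, 0.657, 1.73 and 1.14 CPM in M303, 1.14, 1.17 and 1.01 CPM in M379, 3.99, 1.90 and 1.53 CPM in SOX9_WT, and 0.912, 0.937 and 1.22 CPM in GFP. SOX9_WT lay above M228, M379 and GFP with no overlap, but its top value was 1 library, replicate 1, and the highest M303 library exceeded the lowest SOX9_WT library.

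On the log2 scale, CCN2 in SOX9_WT differed from GFP by 1.26 ± 0.41 (SE), and the edgeR adjusted p was 0.431. Against SOX9_WT, the differences were −0.93 ± 0.38 in M228 (edgeR adjusted p = 0.569), −1.14 ± 0.35 in M303 (0.320) and −1.21 ± 0.38 in M379 (0.534). None passed. These 4 differences share the SOX9_WT libraries, and without SOX9_WT replicate 1 they were 0.70 for SOX9_WT against GFP, −0.36 for M228, −0.57 for M303 and −0.64 for M379 against SOX9_WT. Of the CCN2 exon bases, 8.34% also lie in a gene on the opposite strand, ENSG00000227220, which had 0 to 1 reads per library.

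**Figure D3:**
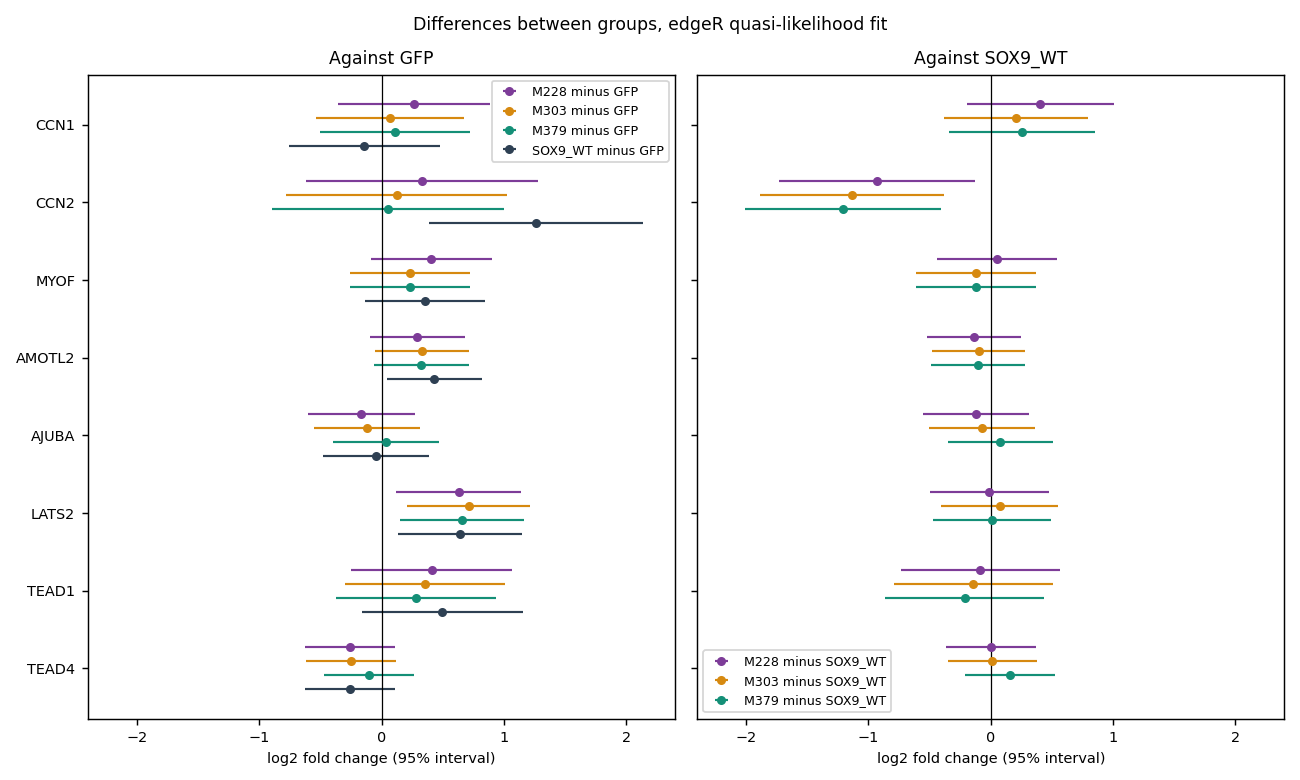
Log2 fold changes of the 8 tested genes with 95% intervals from the edgeR quasi-likelihood fit, for the 4 groups against GFP on the left and for the 3 mutants against SOX9_WT on the right. The intervals of CCN2 are the widest, reaching 2.13 against GFP and −2.01 against SOX9_WT; the LATS2 intervals against GFP lie above 0, and none of the differences passed adjustment over 16160 genes.

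ANKRD1 (ENSG00000148677, chr10:90912096-90921087, minus strand) was at the edge of detection. There were 0 reads in the 3 M228 libraries, 0, 1 and 0 in M303, 0, 1 and 1 in M379, 9, 4 and 0 in SOX9_WT, and 1, 0 and 1 in GFP. Most of its reads, 13 summed over SOX9_WT, thus came from replicates 1 and 2 of that group, the same libraries in which CCN2 was highest. Pooled over a group, this is 0.284 CPM in SOX9_WT (exact Poisson 95% interval 0.151 to 0.486) and 0.0638 CPM in GFP (0.00772 to 0.230), and the 0 reads of M228 allow up to 0.0913 CPM by the same interval. These intervals cover counting error only. With no filter on low counts, edgeR gave an adjusted p of 0.0607 for M303 against SOX9_WT, 0.0986 for M228 against SOX9_WT and 0.692 for SOX9_WT against GFP, so no comparison passed. The edgeR test for any difference among the 5 groups gave an adjusted p of 0.0520 in that fit and did not pass either.

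The receptor gene AXL (ENSG00000167601, chr19:41219223-41261766, plus strand) had 4, 5 and 9 reads in M228, 18, 8 and 6 in M303, 6, 6 and 3 in M379, 6, 7 and 2 in SOX9_WT, and 0, 2 and 3 in GFP. Expressed as CPM, M228 (0.256 to 0.706), M303 (0.285 to 0.537) and SOX9_WT (0.191 to 0.475) did not overlap GFP (0 to 0.184), while M379 (0.178 to 0.403) did. Of all tested genes, 9.54% did not overlap in M228 against GFP, 9.36% in M303 and 11.8% in SOX9_WT. The SOX9_WT margin, 0.191 against 0.184 CPM, set a library with 2 reads against a GFP library with 3. The GFP library without a read is the shallowest of the 15, where 3 reads would be 0.912 CPM, a level above that of AXL in any library. With no filter on low counts, the log2 difference from GFP was 1.49 in M228, with an unadjusted edgeR p of 0.0478, and the adjusted p-values of the 4 groups against GFP ran from 0.737 to 0.952, so none passed.

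MYOF (ENSG00000138119, chr10:93306429-93482334, minus strand) had 385.3, 356.4 and 337.3 CPM in M228, 301.4, 351.3 and 304.8 CPM in M303, 320.4, 283.4 and 352.2 CPM in M379, 349.0, 374.2 and 317.2 CPM in SOX9_WT, and 318.4, 143.6 and 352.9 CPM in GFP. Of the 15 libraries 14 lay between 283.4 and 385.3 CPM, and GFP replicate 2 had less than any of them. The log2 differences from GFP ran from 0.23 to 0.41, with bounds of −0.26 and 0.90. Without that library they were 0.096 in M228, −0.080 in M303, −0.081 in M379 and 0.047 in SOX9_WT, and without GFP replicate 3 they were 0.65, 0.48, 0.48 and 0.60 in the same order (smallest edgeR adjusted p 0.174). In the other 2 GFP libraries, MYOF and TEAD1 lay within the range of the SOX9 groups.

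LATS2 (ENSG00000150457, chr13:20973036-21061586, minus strand), the kinase that phosphorylates YAP, had the smallest p against GFP of the 8 genes in each mutant. It had 18.8, 22.9 and 20 CPM in M228, 19.2, 24.7 and 21.2 CPM in M303, 19.1, 19.5 and 23.8 CPM in M379, 22.03, 23.1 and 16.5 CPM in SOX9_WT, and 12.8, 8.01 and 18.5 CPM in GFP. All libraries of the 3 mutants lay above all 3 GFP libraries, by a narrow margin over GFP replicate 3, and SOX9_WT replicate 3 lay inside the GFP range.

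The log2 differences of LATS2 from GFP were 0.63 ± 0.24 in M228, 0.71 ± 0.24 in M303, 0.65 ± 0.24 in M379 and 0.64 ± 0.24 in SOX9_WT, with edgeR adjusted p-values of 0.432, 0.453, 0.640 and 0.440 for these groups in turn. All 4 share the GFP libraries. Without GFP replicate 2, they were 0.32, 0.40, 0.34 and 0.34 in the same order. Without GFP replicate 3, the difference of M228 was 1.06 and passed (edgeR adjusted p = 0.0453), while M303 (1.14), M379 (1.09) and SOX9_WT (1.07) did not, at adjusted p-values of 0.0624, 0.0925 and 0.0628. With no filter on low counts, LATS2 passed in M303 against GFP (0.75, edgeR adjusted p = 0.0432). Between mutants and SOX9_WT the differences ran from −0.011 to 0.072, with bounds of −0.50 and 0.55, so differences of more than 1.5-fold lie outside these intervals.

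AMOTL2 (ENSG00000114019, chr3:134355874-134375479, minus strand), an angiomotin family protein that binds YAP, had 62.5, 74.9 and 75.0 CPM in M228, 54.2, 86.7 and 76.7 CPM in M303, 61.1, 75.4 and 80.1 CPM in M379, 73.1, 84.8 and 75.3 CPM in SOX9_WT, and 45.6, 57.2 and 68.8 CPM in GFP. SOX9_WT lay above GFP with no overlap, whereas each mutant overlapped GFP. Number by number, each library of the 3 mutants and of SOX9_WT lay above the GFP library with the same number. These same-numbered pairs reuse the same 3 GFP libraries, and the share of all tested genes with this order was not counted. With the replicate block no mutant was called against GFP (edgeR adjusted p 0.279 to 0.324). The SOX9_WT difference was 0.43 ± 0.18 on the log2 scale and did not pass (edgeR adjusted p = 0.449). The 3 mutants differed from GFP by 0.29 to 0.33 and from SOX9_WT by −0.14 to −0.10. AMOTL2 shares 3.13% of its exon bases with another gene on the same strand.

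AJUBA (ENSG00000129474, chr14:22971177-22982551, minus strand), a LIM domain adaptor that binds LATS kinases, had 75.1, 85.4 and 104.5 CPM in M228, 66.9, 109.9 and 97.1 CPM in M303, 85.9, 112.3 and 105.8 CPM in M379, 90.3, 95.6 and 102.0 CPM in SOX9_WT, and 72.1, 100.8 and 122.4 CPM in GFP. The GFP libraries spanned nearly the whole range, and all groups overlapped. The differences from GFP ran from −0.17 to 0.032 on the log2 scale, with bounds of −0.60 and 0.47.

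Libraries of 2 groups did not overlap for 2 of the 8 genes in M228 against GFP (9.54% of all tested genes), 1 in M303 against GFP (9.36%), 1 in M379 against GFP (8.74%) and 2 in SOX9_WT against GFP (11.8%). They did not overlap for 1 gene in M228 against SOX9_WT (15.7%), 0 in M303 against SOX9_WT (18.5%) and 1 in M379 against SOX9_WT (19.2%). Between mutants there were 0 in M303 against M228 (8.74%), 1 in M379 against M228 (11.5%) and 0 in M379 against M303 (4.87%). All but 1 of these 9 pairs came from CCN2 and LATS2, and the other was AMOTL2. With only 8 genes, counts of 0, 1 or 2 do not set these genes apart from those shares.

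The median log2 difference of the 8 genes from GFP was 0.31 in M228, 0.18 in M303, 0.17 in M379 and 0.39 in SOX9_WT, while the median over all tested genes was −0.0012, 0.012, 0.0089 and 0.0073 in the same order. Without GFP replicate 2, the medians of the 8 genes were 0.16, −0.0077, 0.073 and 0.070, and without GFP replicate 3 they were 0.49, 0.40, 0.36 and 0.59. The 4 comparisons share their control libraries, so the medians are not separate pieces of evidence. Against SOX9_WT the medians were −0.049 in M228, −0.086 in M303 and −0.047 in M379.

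GFP replicate 2 touched these genes unequally. Relative to the mean of the other 2 GFP libraries, its log2 CPM was −1.80 for TEAD1, −1.22 for MYOF and −0.93 for LATS2. For CCN2 it was −0.16, for AMOTL2 0.031, for AJUBA 0.10, for CCN1 0.27 and for TEAD4 0.61. The exon length of TEAD1 is 10700 bases and that of MYOF 8490 bases, the longest of the 8, and TEAD4 with 2275 bases is the shortest.

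The difference went with exon length over all tested genes as well. In the 3133 genes with at least 8000 exon bases the median of this difference was −0.63, in the 7812 genes of 3000 to under 8000 bases it was −0.046, and in the 5215 genes under 3000 bases it was 0.49. TEAD1, MYOF, LATS2 (5613 bases) and CCN2 (2338 bases) lay below the median of their length class, and the other 4 genes lay above it. Of the 8 genes, 3 (37.5%) had their lowest value of all 15 libraries in GFP replicate 2, as had 30 of 71 other pathway genes (42.3%) and 30.4% of all tested genes. What part this library's composition has in the differences from GFP was not tested beyond leaving it out.

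**Figure D4:**
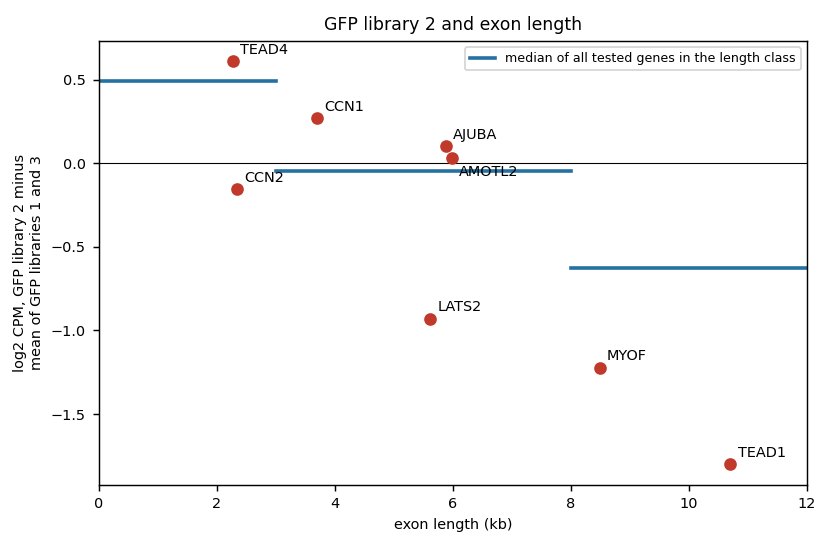
Log2 CPM of the 8 tested genes in GFP library 2 minus the mean of GFP libraries 1 and 3, against exon length in kilobases. Red points are the 8 genes and blue lines the median of all tested genes in each of 3 length classes (0.49 under 3000 bases, −0.046 at 3000 to under 8000 and −0.63 at 8000 or more); TEAD1 (−1.80) and MYOF (−1.22) are the longest genes and lie lowest, and TEAD4 (0.61), the shortest, lies highest.

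The difference that passed for members of the list was between library numbers, not between groups. Library 1 of a group was set against libraries 2 and 3 with the 5 group means kept in the model, a comparison added after the values were seen. The labels do not say what the number marks. The log2 difference of library 1 from the others was −0.36 ± 0.08 for AMOTL2 (edgeR adjusted p = 0.0103), −0.41 ± 0.09 for AJUBA (edgeR adjusted p = 0.00837) and −0.28 ± 0.09 for TEAD4 (edgeR adjusted p = 0.0472). That is 3 of 8 genes, all lower, where 7.52% of all tested genes were called lower and 7.93% higher, 15.4% in all.

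AMOTL2 and AJUBA had their lowest value in library 1 in all 5 groups, which 8.95% of tested genes did. TEAD4 and CCN1 did so in 4 of 5 groups. For CCN1 the difference was −0.43 ± 0.16, with an edgeR adjusted p of 0.0917, and SOX9_WT, where library 1 was highest, was the exception. MYOF (0.084 ± 0.15), TEAD1 (0.025 ± 0.21), LATS2 (−0.11 ± 0.16) and CCN2 (0.088 ± 0.28) did not pass. AMOTL2 and AJUBA each kept their call in 14 of 15 fits that left out 1 library and lost it without M303 replicate 1 (edgeR adjusted p = 0.0702 for AMOTL2 and 0.0571 for AJUBA). TEAD4 kept it in 4 of 15. CCN1 was called in 3 of 15, among them the fit without SOX9_WT replicate 1 (−0.70, edgeR adjusted p = 0.00175).

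**Figure D5:**
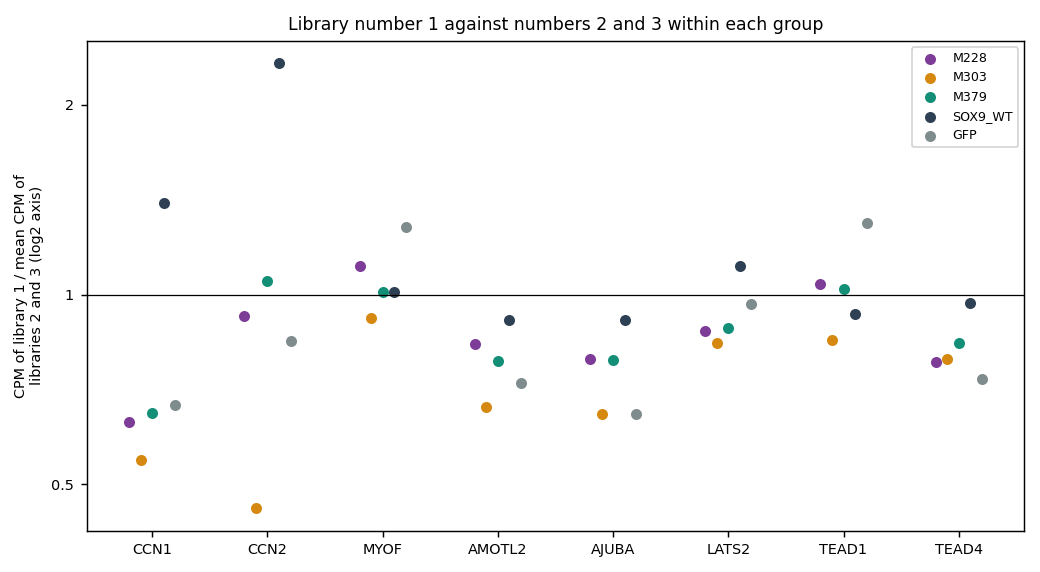
CPM of library 1 divided by the mean CPM of libraries 2 and 3 within each group, for the 8 tested genes (log2 axis, 1 point per group, line at a ratio of 1). All 5 points of AMOTL2, AJUBA and TEAD4 lie below 1; those of CCN1 lie below 1 except in SOX9_WT, and CCN2 ranges widest.

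Some other YAP targets, targets of serum response factor and AP-1 subunit genes also differed by library number. Of 7 AP-1 subunit genes tested, FOSL1 was lower in library 1 (log2 difference −1.14 ± 0.10, edgeR adjusted p = 9.19e-05) and FOS was higher (0.59 ± 0.16, edgeR adjusted p = 0.0215). Of 16 other YAP targets tested, 3 were lower, the tissue factor gene F3 (−0.82 ± 0.09), FJX1 and THBS1, and 2 were higher, IGFBP3 (0.73 ± 0.07) and NUAK2. Of 11 genes controlled by serum response factor, 4 were lower, the actin genes ACTB (−0.71 ± 0.10) and ACTG1 with FLNA (−0.89 ± 0.15) and CNN2, and EGR1 was higher. Among genes of the regenerating gut, ANXA1, ANXA3 and CLU were lower and KLF6 was higher. Of 21 Hippo pathway genes 1 passed, TAOK3, which was higher, and none passed of the 6 co-activators and other TEAD factors. Directions thus differed within the lists. Beside these counts, 7.52% of all tested genes were called lower and 7.93% higher, 15.4% in all. Whether a list departs from these shares was not tested.

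Of 83 further pathway genes in 7 lists, 71 were tested, and none was called in any of the 10 comparisons. Since at most 0.569% of all tested genes were called in a comparison, this count does not set them apart. YAP1 had 106.6 to 130.3 CPM in M228, 104.6 to 120.8 CPM in M303, 93.0 to 122.9 CPM in M379, 115.7 to 121.3 CPM in SOX9_WT, and 45.7 to 117.7 CPM in GFP, where again replicate 2 was lowest. Its differences from GFP ran from 0.27 to 0.41 on the log2 scale, with bounds of −0.25 and 0.92. Without GFP replicate 2 they were 0.051 in M228, 0.015 in M303, −0.061 in M379 and 0.087 in SOX9_WT. WWTR1 had 13.8 to 17.4 CPM in M228, 12.6 to 17.6 CPM in M303, 12.7 to 16.6 CPM in M379, 18.3 to 24.998 CPM in SOX9_WT, and 12.5 to 19.8 CPM in GFP. The 3 mutants did not overlap SOX9_WT in WWTR1, nor did 15.7% (M228), 18.5% (M303) and 19.2% (M379) of all tested genes. These 3 comparisons share the SOX9_WT libraries, and the differences, −0.47 to −0.38, did not pass (smallest edgeR adjusted p 0.813). YAP1 and WWTR1 share 10.1% and 9.05% of their exon bases with genes on the opposite strand.

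Of the 7 lists, the smallest adjusted p was 0.180, for EMP1, an epithelial membrane protein gene, in M228 against GFP, where the log2 difference was 0.71 ± 0.19 (edgeR). EMP1 averaged 202.3 ± 45.6 CPM in M228 and 123.7 ± 14.7 CPM in GFP (SD, n = 3 each). CCN3, of the same family as CCN1 and CCN2, averaged 11.9 ± 2.6 CPM in M228 and 5.92 ± 2.0 CPM in GFP, a difference of 0.93 ± 0.25 (edgeR adjusted p = 0.193). The TEAD cofactor gene VGLL3 differed by 1.10 ± 0.37 between M228 and GFP (edgeR adjusted p = 0.346), and AMOT, a relative of AMOTL2, by 0.82 ± 0.25 between SOX9_WT and GFP (edgeR adjusted p = 0.423). The remaining lists had their smallest adjusted p at NT5E (0.231), EGR1 (0.217) and FOSL2 (0.446). None of these passed. Without GFP replicate 2, the difference from GFP was 0.64 for EMP1, 0.75 for CCN3 and 0.58 for VGLL3 in M228 and 0.49 for AMOT in SOX9_WT, and none of the 4 passed. Without GFP replicate 3, AMOT passed in SOX9_WT (1.41, edgeR adjusted p = 0.0183) and in M228 (0.93, edgeR adjusted p = 0.0443), and CCN3 passed in M228 (1.30, edgeR adjusted p = 0.0448). EMP1 (0.81) and VGLL3 (1.72) in M228 did not.

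For CCN1 and CCN2, the tested genes with the most similar profile over the 15 libraries were found by the root mean square (RMS) difference of centred log2 CPM. Nearest to CCN1 were MARCHF3 (0.14), CAVIN1 (0.17) and MAPRE3 (0.18), beside an RMS of 0.35 for the CCN1 profile itself. MARCHF3, CAVIN1 and MAPRE3 were each called between library numbers (edgeR adjusted p = 0.0283, 0.00680 and 0.00220). Nearest to CCN2 were GAS7 (0.30), PMP22 (0.33) and MUC13 (0.33), beside 0.53 for CCN2 itself. The CCN2 neighbours were thus a looser match than those of CCN1. These likenesses are descriptions over 15 libraries that share groups and library numbers.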

How the data were processed

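RNA of 15 libraries was measured by poly(A)-selected RNA sequencing. The submitters' processing notes name STAR 2.7.0a and hg38. The deposited values are raw read counts of genes. Per the file headers, the authors counted with featureCounts 2.0.1 on GRCh38 genes from Ensembl 101, in a command without a strand option. Reads of overlapping genes on opposite strands therefore cannot be told apart. The sources used here give no trimming step. In the deposited table of normalized values, 3 columns match no sample label, and that table was not used. Of 60671 genes, 42020 received a symbol through their Ensembl identifier.

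Genes passing filterByExpr (16160) were scaled by TMM and fitted with 1 mean per group over all 15 libraries, which leaves 10 residual degrees of freedom, using the quasi-likelihood functions of edgeR 4.0.16 (R 4.3.3). Tests were two-sided, with Benjamini-Hochberg adjustment over all tested genes of a comparison and a call at an adjusted p under 0.05. Values per kilobase divide CPM by the exon length in the deposited table. Differences are log2 values ± standard error. The steps were tested on simulated counts with known changes, where a gene had the same dispersion in all libraries. The simulation held no library that stood apart and, for the group comparisons, no difference between library numbers. It therefore does not show how the tests behave with a library like GFP replicate 2. No library pair within a group agreed within sampling noise. A gene with 0 reads could be present at up to the level of 3 reads, between 0.0896 CPM at the greatest depth and 0.912 CPM at the least, counting error only.

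The text names SOX9, the 10 genes, YAP1 and WWTR1, called members of 7 further lists of pathway genes, and 3 nearest profiles each for CCN1 and CCN2. Genes named outside this rule, those with the smallest adjusted p of a list, were chosen after their values were seen, as was the comparison of library numbers. The result of 1 listed gene is not reported here. The members, the lists and the tests were chosen with earlier results of these data known. Alternatives were a replicate block, DESeq2 1.42.0, its size factors in edgeR, no filter, robust dispersion, libraries 2 and 3 only, the 2 groups alone, and leaving out each library.

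The labels give each group the numbers 1 to 3 without saying that a number marks a batch, so pairing was judged by whether the deviations of each same-numbered pair from their group means correlated above 0.1. This held between mutants, for each mutant against GFP and, with a lowest value of 0.101, for M303 against SOX9_WT. It did not hold for SOX9_WT against GFP, M228 against SOX9_WT or M379 against SOX9_WT.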

Additional observations from a re-analysis of the deposited data

How the results depend on the processing

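Over 130 alternative fits of the 10 comparisons, 1 of the 10 genes was called in 2, LATS2 each time: 1 gene without GFP replicate 3 in M228 against GFP, and 1 gene with no filter in M303 against GFP. With no filter, 1 gene, CCN2, was also called for any difference among the 5 groups (edgeR adjusted p = 0.0261). Leaving out 1 library gave 0 to 1 genes in M228 against GFP and 0 in each other comparison. Depth limits CCN2, ANKRD1 and AXL most. The background counts over all genes moved more, and the cause was not tested. In the order M228, M303, M379 and SOX9_WT against GFP, M228, M303 and M379 against SOX9_WT, M303 against M228, M379 against M228, M379 against M303 and any difference, the counts of called genes were 39, 19, 6, 5, 92, 62, 20, 2, 7, 0 and 110. With no filter, they were 282, 212, 74, 180, 320, 273, 137, 47, 48, 5 and 596. DESeq2 gave 167, 83, 45, 58, 216, 150, 57, 11 and 19 for the first 9 and 341 for any difference. Libraries 2 and 3 only gave 9, 4, 3, 1, 21, 7, 1, 1 and 1, and 16 for any difference. The 2 groups alone gave 3, 2, 1, 0, 278, 121 and 156 for the first 7, and DESeq2's size factors gave 3 for M379 against GFP. Leaving out 1 library gave 15 to 143, 4 to 31, 2 to 12, 0 to 40, 27 to 44, 9 to 33, 1 to 8, 1 to 2, 0 to 4, 0 and 22 to 255 in the full order.

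With the replicate block, 0 of the 10 genes were called in any comparison, as without it. Under the block, the paired comparisons against GFP had 181 (M228), 85 (M303) and 17 (M379) called genes. Of the other paired comparisons, M303 against SOX9_WT had 259, M303 against M228 had 14 and M379 against M228 had 25. M379 against M303 was paired as well, and its count is not given here. Where the numbers did not pair the libraries, the block gave 79 for SOX9_WT against GFP, 319 for M228 against SOX9_WT and 106 for M379 against SOX9_WT, and 332 for any difference.

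Between library numbers, 2496 genes were called. Leaving out 1 library gave 890 to 5359 called genes and 0 to 4 of the 10 genes, the lowest of both without M303 replicate 1. Leaving out a whole group gave 950 (M228), 627 (M303), 1108 (M379) and 4631 (GFP). Of the 10 genes, 0 were called without the M303 group and 1, AJUBA, without the M379 group.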
